A study of Drosophila melanogaster with 4 samples.

Results

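The regions described here are the stretches enriched for HP1c on chromosome 4 and on 5 assembled heterochromatin sequences of the fruit fly Drosophila melanogaster. They are all rows of the authors' combined region list that lie on chromosome 4, 2LHet, 2RHet, 3LHet, 3RHet or XHet, 702 of the 8021 regions in that list. Chromosome 4 held 111 of them, 2LHet 45, 2RHet 348, 3LHet 128, 3RHet 60 and XHet 10. HP1c-bound DNA was recovered by chromatin immunoprecipitation with the antibody MO 462 and sequenced (ChIP-seq) from embryos of the wild-type strain Oregon-R. The stage label reads 14 to 16 h, the protocol text gives only that embryos were at most 16 h old, and the chromatin was fixed with 1.8% formaldehyde. The series has 2 HP1c ChIP samples and 2 input samples of genomic DNA from the same stage and strain. Each ChIP sample has a region list of its own, and the combined list stands for the pair. The labels do not state whether the 2 ChIP samples stem from separate embryo collections, so their spread may be only technical, and whole embryos mix all cell types.

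HP1c belongs to the heterochromatin protein 1 family, whose members carry a chromodomain, which binds methylated histone H3, and a chromoshadow domain, which binds partner proteins. HP1a, the founding member, coats the repeat-rich chromatin around the centromeres, whereas HP1c is known mainly from euchromatin, where it associates with the zinc finger proteins WOC and ROW. Chromosome 4 is the small autosome of the fly, on which genes are interspersed with repeats and packaged together with HP1a. The sequences 2LHet, 2RHet, 3LHet, 3RHet and XHet are the assembled pieces of pericentric heterochromatin of the named arms.

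Each region has a start, an end and a score that the authors gave it. No header states the scale of the score. In each list some pairs of different scores lay exactly 1 apart within 1e-09, 97 pairs in the combined list, 53 in replicate 1 and 104 in replicate 2, whereas no pair in any list was 0.9, 1.1, the log10 of 2 or the natural log of 2 apart. That spacing is the one that doublings leave on a log2 scale. Read counts are not part of the lists, the depth behind a region is therefore unknown, and no test across samples was run. Regions of one list are not replicates of each other, and all shares below are descriptions of these lists, with exact (Clopper-Pearson) 95% intervals that cover counting error only. Positions are those of FlyBase release 5, and neither gene names nor genome sequence of that release were used here.

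On chromosome 4 the combined regions covered 33.7% of the sequence, against 9.06% for the regions of replicate 1 and 14.3% for those of replicate 2. On 2LHet they covered 32.1%, against 2.75% in replicate 1 and 2.73% in replicate 2. The corresponding shares on 2RHet were 24.9% combined, 1.73% in replicate 1 and 2.30% in replicate 2. The coverage of these sequences therefore depended on the list that was read, more so on 2LHet and 2RHet than on chromosome 4. On 3LHet the combined regions covered 9.45%, against 2.24% and 3.03% in replicates 1 and 2, and on 3RHet 4.64%, against 1.06% and 1.32%. XHet differed least between lists, with 9.36% covered in the combined list, 7.66% in replicate 1 and 6.19% in replicate 2. For comparison, the 4 large autosomal arms (2L, 2R, 3L, 3R) were covered to 14.9% in the combined list, 8.62% in replicate 1 and 9.06% in replicate 2.

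Few regions of the 6 sequences had a counterpart in both replicates. Counting an overlap from 1 shared base, 81 of the 702 regions (11.5%, interval 9.27 to 14.1) were overlapped by a region of each replicate, against 44.5% of all 8021 combined regions. A further 32 (4.56%) were overlapped by 1 replicate only, against 11.9% of the whole list. The other 589 (83.9%) were overlapped by neither, against 43.6% of the whole list. The 6 sequences were not alike in this. On chromosome 4, 36 of 111 regions were overlapped by both replicates (32.4%, interval 23.9 to 42.0), and on XHet 4 of 10 (40.0%, interval 12.2 to 73.8). On 3RHet there were 9 of 60 (15.0%, interval 7.10 to 26.6) and on 3LHet 18 of 128 (14.1%, interval 8.55 to 21.3). 2LHet had 2 of 45 (4.44%, interval 0.543 to 15.1) and 2RHet 12 of 348 (3.45%, interval 1.79 to 5.95). The interval of chromosome 4 lay above those of 2LHet, 2RHet and 3LHet, while that of XHet, with 10 regions, overlapped all the others except that of 2RHet. On the autosomal arms the share was 45.8% and on X 73.1%. The share on chromosome 4 depended on the rule: asking that each overlap span 50% of both regions left 18.9% there, 5.58% on the 5 heterochromatin sequences together and 38.4% in the whole list. Among regions with a score at or above the median of the whole list it was 58.5% on chromosome 4, 11.3% on heterochromatin and 62.5% in the whole list.

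**Figure D1:**
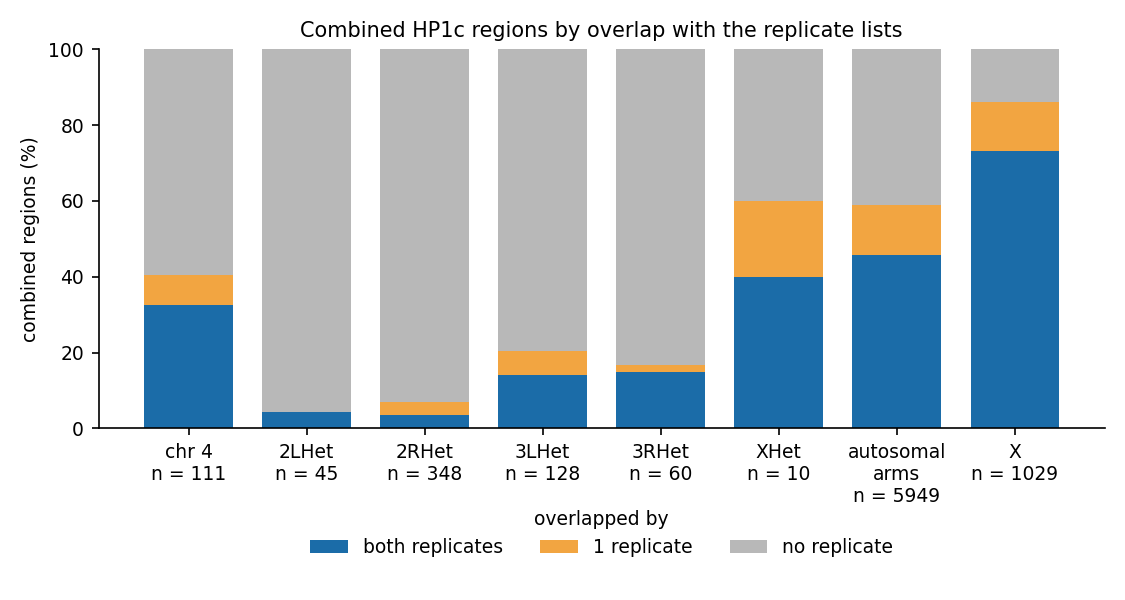
Share of the combined HP1c regions on each sequence that were overlapped by both replicates, by 1 replicate or by none (percent of regions), with the autosomal arms and X for comparison. Regions without a replicate made up 95.6% on 2LHet, 93.1% on 2RHet, 83.3% on 3RHet, 79.7% on 3LHet, 59.5% on chromosome 4 and 40.0% on XHet.

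The regions with and without replicate overlap differed in size and in score. On chromosome 4, regions overlapped by both replicates had a median width of 3938 bp and a median score of 0.79, and those overlapped by none 1669 bp and 0.41. On 2RHet the medians were 4784 bp and 0.87 for the 12 regions with both replicates, and 1752.5 bp and 0.47 for the 324 without any. On 3LHet they were 3336.5 bp and 0.88 with both, and 1334 bp and 0.56 with none. The same order held on 2LHet and 3RHet, and on the autosomal arms, where the medians were 2270 bp and 0.61 with both and 1414.5 bp and 0.42 with none. XHet, with 4 regions in each class, had the higher median score among those without a replicate, 0.76 with both and 0.81 with none. The regions with both replicates made up 52.9% of the bases that combined regions covered on chromosome 4 and 15.3% on the 5 heterochromatin sequences together, against 59.6% on the autosomal arms.

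Part of the list was narrower than anything in the replicate lists. The narrowest combined region was 1001 bp wide, and the narrowest region of each replicate list 1301 bp. Of the 702 regions, 208 (29.6%) were narrower than 1301 bp, against 21.4% of the regions on the autosomal arms, and 202 of the 208 (97.1%) were overlapped by no replicate, against 81.1% of such narrow regions in the whole list. Among regions of at least 1301 bp, a width minimum chosen after the widths were seen, both replicates overlapped 35 of 88 on chromosome 4 (39.8%) and 44 of 406 on the heterochromatin sequences (10.8%), against 56.4% on the autosomal arms. By sequence this share was 5.56% on 2LHet, 4.90% on 2RHet, 22.0% on 3LHet, 25% on 3RHet (9 of 36) and 42.9% on XHet (3 of 7), so 2RHet, with 245 of the 406 regions, set much of the heterochromatin value. The part of width in the overlap counts was not tested. Median widths over all regions were 2307 bp on chromosome 4, 1984 bp on 2LHet, 1779 bp on 2RHet, 1544 bp on 3LHet, 1445 bp on 3RHet and 1753.5 bp on XHet, against 1963 bp on the autosomal arms.

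Scores were of similar size on all 6 sequences at the centre of their distributions. The median was 0.46 on chromosome 4, 0.57 on 2LHet, 0.47 on 2RHet, 0.56 on 3LHet, 0.64 on 3RHet and 0.60 on XHet, and 0.45 on the autosomal arms. The relation of score to width was not alike. Across regions, which share a library and are not independent, Spearman's rho between width and score was 0.48 on chromosome 4, 0.15 on 2LHet, -0.0021 on 2RHet, 0.029 on 3LHet, 0.14 on 3RHet and 0.66 on XHet, against 0.50 on the autosomal arms. On chromosome 4, 2LHet, 2RHet and 3LHet, regions near 1 kb in width reached scores above that of the widest region. Many scores were also repeated exactly: 289 of the 702 regions (41.2%) had the same score as at least 1 other combined region, against 33.5% of the whole list. Repeated scores were held by 9 of the 81 regions with both replicates (11.1%) and by 274 of the 589 without a replicate (46.5%). In the whole list these shares were 16.5% with both replicates and 50.0% without any, so within each class the 6 sequences did not exceed the whole list.

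**Figure D2:**
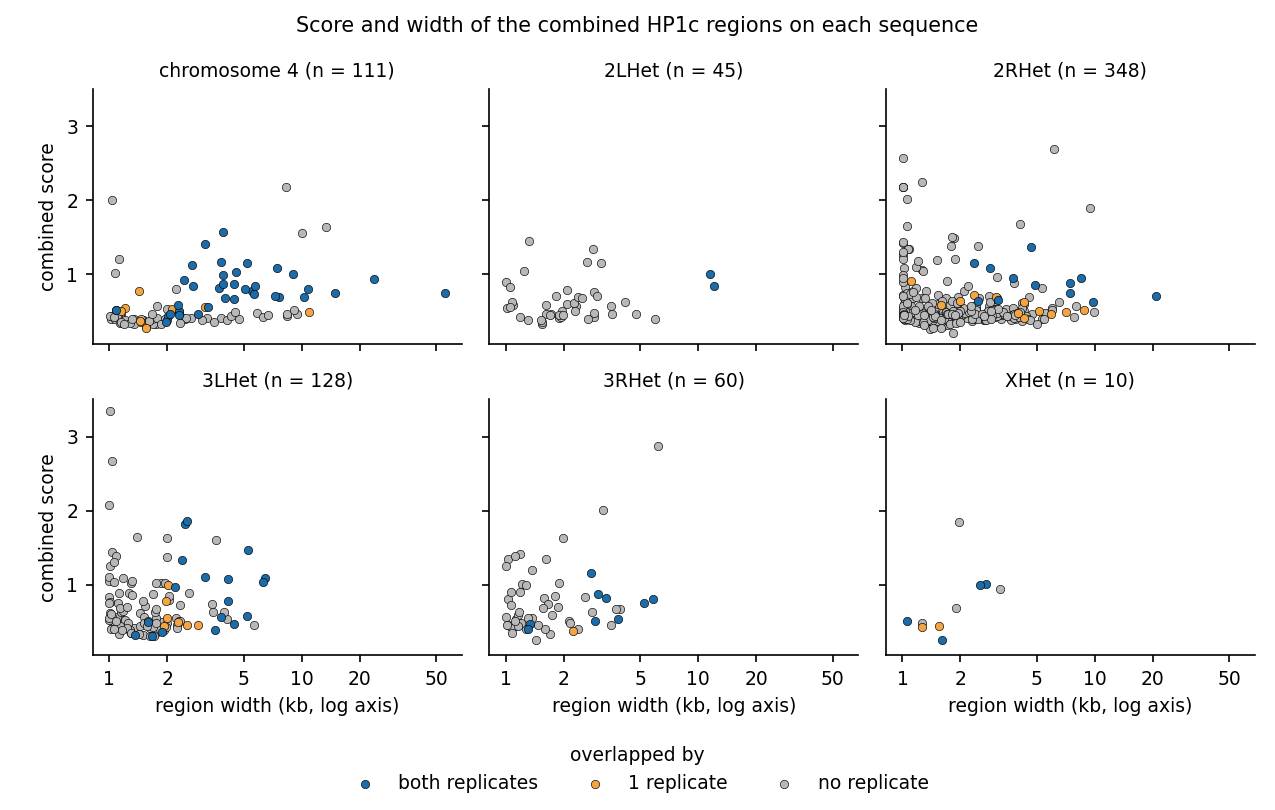
Score (authors' score, vertical axis) against width (kb, log axis) of each combined HP1c region, with 1 panel for each of the 6 sequences and colours for the replicates that overlapped it. On chromosome 4 regions with both replicates lie at larger widths, with medians of 3938 bp against 1669 bp for regions with none. On 2RHet and 3LHet a column of regions close to 1 kb reaches scores over 2 without any replicate, and on chromosome 4 a region of 1028 bp does so.

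On all 6 sequences the top-scoring region was one that no replicate region overlapped. On 3LHet it was the region at 298970 to 299976, 1007 bp wide with a score of 3.35, rank 10 of the whole combined list, and 7 regions of the list had this same score. On 3RHet it was 786675 to 792825, with a score of 2.87 and a width of 6151 bp, which was also the widest region of that sequence. On 2RHet the region at 2930301 to 2936394 had a score of 2.69 over 6094 bp. These 3 regions ranked 10, 39 and 56 among the 8021 combined regions. The nearest replicate region was 10136 bp away from the 3LHet region, 145460 bp from the 3RHet region and 27632 bp from the 2RHet region. XHet had its highest score, 1.85, at 39335 to 41303, and 2LHet its highest, 1.45, at 310804 to 312122. Among the top 3 regions by score of each heterochromatin sequence, 13 of 15 were overlapped by no replicate, 5 were narrower than 1301 bp and 6 had a repeated score. The other 2 of the 15 were both on XHet. Over all 591 heterochromatin regions, 88.5% had no replicate, 31.3% were narrower than 1301 bp and 42.5% had a repeated score, so the top regions were close to the rest in these respects.

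On chromosome 4 the top 3 regions by score were likewise overlapped by no replicate, and among its 10 highest scores 5 were overlapped by both replicates and 5 by none. Over all 111 regions of chromosome 4, both replicates overlapped 32.4% and none 59.5%. Among its regions with a score at or above the whole list's median, both overlapped 58.5%. The highest score, 2.18, belonged to 340584 to 348852, 8269 bp wide and 384 bp from the nearest replicate region. The region at 860621 to 861648 followed with 2.01 over 1028 bp, a score that 4 combined regions had in common. Towards the end of the sequence, 1305236 to 1318579 scored 1.64 over 13344 bp and 1289026 to 1298996 scored 1.56 over 9971 bp. The second of these ended 27 bp short of a replicate 2 region at 1299024 to 1300338, which scored 0.36 there and was itself overlapped by no combined region. The last of the 5 without a replicate, 1345770 to 1346890, scored 1.21 over 1121 bp.

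Among chromosome 4 regions found in both replicates, the highest combined score, 1.57, belonged to 463823 to 467694, which lay wholly inside 1 region of each replicate. Its replicate regions scored 1.25 in replicate 1 and 2.21 in replicate 2, ranks 721 and 74 of those lists. The region at 807412 to 810559 was also wholly inside a region of each replicate, with 1.41 in the combined list, 1.36 in replicate 1 and 1.94 in replicate 2. Both were compact, 3872 bp and 3148 bp wide. The next 3 were 1216610 to 1220397 with 1.17 combined, 0.87 in replicate 1 and 1.70 in replicate 2, then 714195 to 719363 with 1.15, 0.87 and 1.67, and 590569 to 593240 with 1.13, 0.68 and 1.59. Lower in the order came 1046837 to 1054252 with 1.08, 1.35 and 1.55, and 1142214 to 1146776 with 1.04, 0.79 and 1.60. The region at 60555 to 69589 had 1.01, 1.21 and 1.44, and 689335 to 693208 had 0.99, 0.92 and 1.46, each in the order combined, replicate 1 and replicate 2. In all 9 the score of replicate 2 was the highest of the 3 values. The combined score lay below both replicate scores in 2 of them, 1046837 to 1054252 and 60555 to 69589.

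Within the 6 sequences, broad regions were mostly on chromosome 4. In the whole list 96 of 8021 regions were wider than 10000 bp, 73 of them on the autosomal arms and 10 on X. Of the 10 such regions among the 702, 7 were on chromosome 4, 2 on 2LHet and 1 on 2RHet. Both replicates overlapped 8 of the 10 by at least 1 base, a rule that a wide region can meet with few of its bases. This share was not computed for broad regions elsewhere, so it cannot be set against the rest of the list. The widest of the 10, chromosome 4 934186 to 989570, spanned 55385 bp with a score of 0.76. Inside it lay 3 regions of replicate 1, covering 15.4%, and 2 regions of replicate 2, covering 21.6%. Those with the longest overlap scored 1.55 in replicate 1 and 1.45 in replicate 2. The region at 72508 to 96188, 23681 bp wide with a score of 0.93, held 4 regions of each replicate, covering 48.4% and 68.7% of it. The replicates thus marked several shorter stretches inside what the combined list gave as 1 region. The widest region of 2RHet, 465204 to 485896, was 20693 bp wide, with 44.4% of its bases in replicate 1 regions and 46.0% in replicate 2 regions. On 2LHet, 24322 to 36349 (12028 bp) had 30.6% and 30.4% of its bases in regions of replicates 1 and 2. By contrast, the widest region of 3LHet, 600606 to 607048 (6443 bp), lay wholly inside 1 region of each replicate.

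The heterochromatin regions with both replicates numbered 45 and were spread over all 5 sequences. The pair on 2LHet, 167488 to 178965 and 24322 to 36349, were the widest regions of that sequence, with combined scores of 1.00 and 0.84. They scored 1.29 and 1.16 in replicate 1, and 1.44 and 1.48 in replicate 2, and they met every replicate region that 2LHet had. On 2RHet the highest such score was at 2897986 to 2902653, with 1.37 in the combined list, 1.25 in replicate 1 and 1.94 in replicate 2. It was followed by 1385381 to 1387725 with 1.16, 0.87 and 1.46, and by 1094334 to 1097180 with 1.08, 0.73 and 1.47. These 3 regions were 4668, 2345 and 2847 bp wide and lay far apart on the sequence.

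3LHet held the highest combined scores of the 81. The region at 541363 to 543892 scored 1.86 combined, 0.78 in replicate 1 and 2.53 in replicate 2, and the region at 264884 to 267368 scored 1.82, 1.51 and 2.91. At both, replicate 2 stood well above replicate 1. The region at 1393924 to 1399188 scored 1.47, 1.56 and 2.04. On 3RHet the leading regions were 1141321 to 1144078 with 1.16 combined, 0.77 in replicate 1 and 1.34 in replicate 2, then 1823134 to 1826128 with 0.87, 1.00 and 1.30, and 1705141 to 1708461 with 0.83, 0.93 and 1.24. Of the 9 regions with both replicates on 3RHet, 6 lay between 1762256 and 2014006, a stretch of 10% of its length. That stretch was picked after its counts were seen. It also held 11 of the 60 combined regions, 6 of the 11 regions of replicate 1 and 7 of the 11 of replicate 2.

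XHet was small enough to be followed region by region. Its 4 regions with both replicates were 49342 to 50944, 56504 to 57557, 74779 to 77504 and 83188 to 85716. The last pair scored 1.01 and 1.00 combined, 0.90 and 1.08 in replicate 1, and 1.47 and 1.55 in replicate 2. The first pair was weaker, with 0.26 and 0.52 combined, 0.60 and 0.45 in replicate 1, and 0.60 and 0.49 in replicate 2. Replicate 2 alone overlapped 5415 to 6971 (0.45 combined and 0.64 in replicate 2) and 161597 to 162864 (0.43 and 0.53). The remaining 4, at 33372 to 36601, 39335 to 41303, 68798 to 70059 and 125211 to 127114, met neither replicate and scored 0.94, 1.85, 0.48 and 0.68.

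The replicates differed in the level of their scores on these sequences. In 34 of the 36 regions of chromosome 4 with both replicates, the replicate 2 score was above that of replicate 1, and the same held in 41 of the 45 on heterochromatin. Over all 3571 such regions of the combined list the share was 74.6%. The median difference, replicate 2 minus replicate 1, was 0.44 on chromosome 4 (quartiles 0.23 and 0.63) and 0.32 on heterochromatin (0.14 and 0.56). On the autosomal arms it was 0.14 (-0.0040 and 0.33) and on X 0.15 (-0.010 and 0.33). The median scores behind it were 0.77 in replicate 1 and 1.24 in replicate 2 on chromosome 4, 0.82 and 1.30 on heterochromatin, and 0.76 and 0.95 on the autosomal arms. With 1 sample on each side of this difference it has no replicate check of its own. The combined score lay below both replicate scores in 13 of the 36 regions on chromosome 4 and in 26 of the 45 on heterochromatin, against 77.2% of all 3571.

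**Figure D3:**
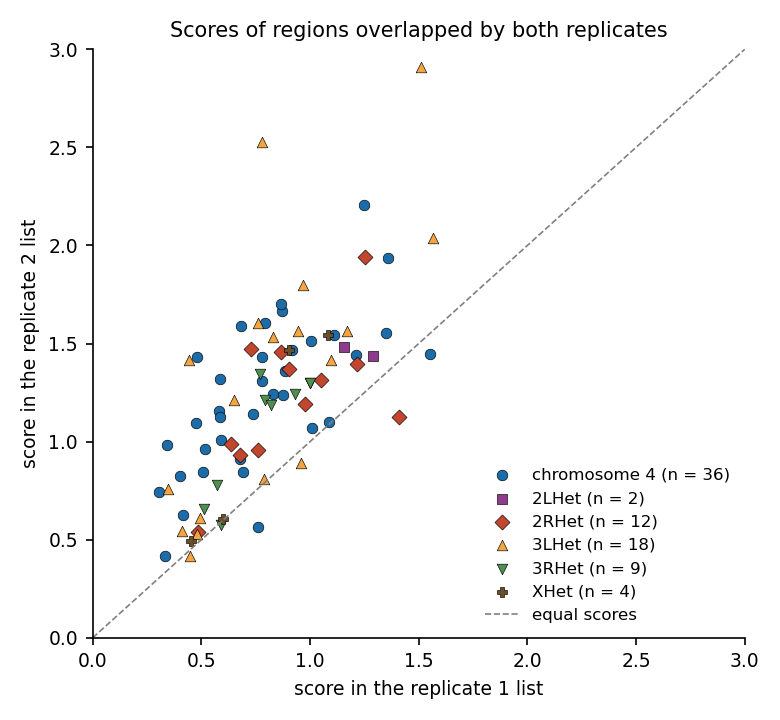
Replicate 2 score against replicate 1 score (authors' scores) for the combined regions of the 6 sequences that both replicates overlap. Where several replicate regions overlap one, the score of the longest overlap is used, and the line marks equal scores. Most points, 34 of 36 for chromosome 4 and 41 of 45 for heterochromatin, lie above the line.

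Along chromosome 4 the coverage by combined regions was concentrated in 2 stretches, whose limits were drawn after the positions were seen. From the start to 260 kb, 32 regions covered 60.3% of the sequence, and 26 of them had no replicate. Between 930 and 1060 kb, 14 regions covered 86.8%, and 11 had none. Of the 112.9 kb covered there, 55.4 kb belonged to the region at 934186 to 989570. Over all regions of chromosome 4, 59.5% had no replicate. Between these stretches, from 260 to 930 kb, 41 regions covered 15.6%, and 20 of the 41 were overlapped by both replicates. After 1060 kb, 24 regions covered 28.0%, 8 of them with both replicates and 12 with none. Replicate 1 covered 12.6%, 7.43%, 13.0% and 7.89% of these 4 stretches from start to end, and replicate 2 covered 16.3%, 12.8%, 15.6% and 15.3%. Since the limits follow the combined list, these stretches cannot compare how much each list varies along the chromosome. Over 10 equal parts of the chromosome, coverage ran from 13.3% to 79.7% in the combined list. It ran from 3.04% to 16.1% in replicate 1 and from 4.88% to 19.3% in replicate 2. The lists lay furthest apart in the window of 100 kb from 100001 to 200000, where the combined list covered 78.2%, replicate 1 4.12% and replicate 2 4.67%. In the window from 400001 to 500000 the lists came close, with 10.3% in the combined list, 10.3% in replicate 1 and 15.3% in replicate 2, and all 4 combined regions there met both replicates.

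**Figure D4:**
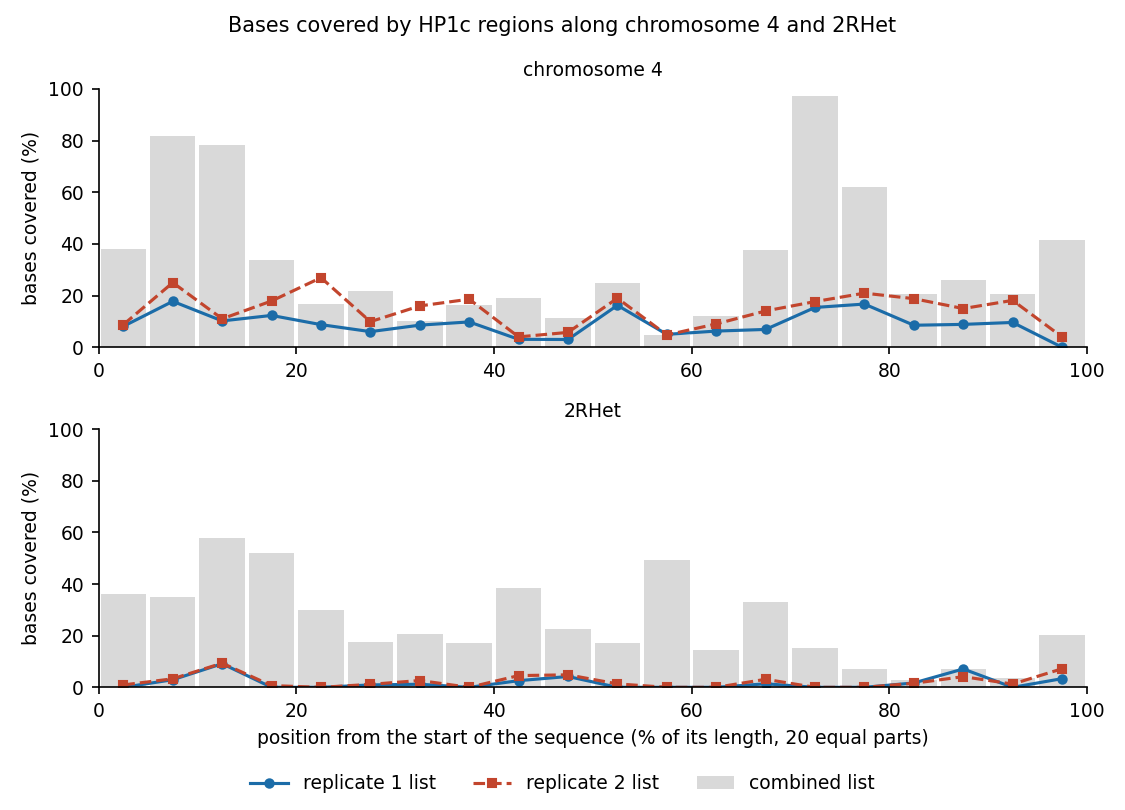
Share of bases (percent) covered by the combined list (bars) and by the replicate lists (lines) in 20 equal parts along chromosome 4 and along 2RHet, with position given as percent of the length from the start. On chromosome 4 the bars peak near the start and near 70% to 80% of the length, where a part is covered to 97.5% by the combined list, to 15.4% by replicate 1 and to 17.7% by replicate 2; on 2RHet the replicate lines stay below 10% throughout.

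Along 2RHet the coverage by the combined list was highest early in the sequence. Between 10% and 20% of its length, 59 regions covered 55.0% of the bases, while replicate 1 covered 4.57% and replicate 2 5.02%. Between 80% and 90% of its length, 6 combined regions covered 5.00%, replicate 1 covered 4.40% and replicate 2 2.85%. The lists marked partly different bases there: combined regions with both replicates covered 2.17%. Of the 6 combined regions, 4 had no replicate, against 93.1% of all 2RHet regions. On 2LHet no combined region lay between 20% and 30% of the length, and 65.0% of the bases between 40% and 50% were covered. On 3LHet, 21 regions lay between 40% and 50% of the length, where neither replicate had any region. No replicate region lay between 30% and 40% either, where there were 4 combined regions. Of all 3LHet regions 79.7% had no replicate, and replicates 1 and 2 had only 22 and 27 regions on the whole sequence. On 3RHet the initial 30% of the sequence held 5 regions, none of them overlapped by a replicate, while 83.3% of all 3RHet regions had none.

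Spacing separated the sequences into close and wide patterns. The median gap between neighbouring regions was 2717 bp on chromosome 4, 2453.5 bp on 2LHet and 2581 bp on 2RHet, against 5215 bp on the autosomal arms. It was 7465 bp on 3LHet, 22017 bp on 3RHet and 8038 bp on XHet. Gaps under 1000 bp made up 34.5% on chromosome 4, 31.8% on 2LHet, 30.0% on 2RHet, 13.4% on 3LHet and 10.2% on 3RHet, against 17.4% on the autosomal arms, and XHet had 0 such gaps among 9. The longest gap on 3RHet, from 295979 to 742517, spanned 446.5 kb and held 1 region of replicate 1 and none of replicate 2. The longest on 3LHet, 136.1 kb from 846115 to 982263, and on 2RHet, 119.6 kb from 2644019 to 2763591, held no replicate region, and neither did the longest on chromosome 4, 88.0 kb from 719364 to 807411. Whether unsequenced stretches of the assembly lie in these gaps was not examined.

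**Figure D5:**
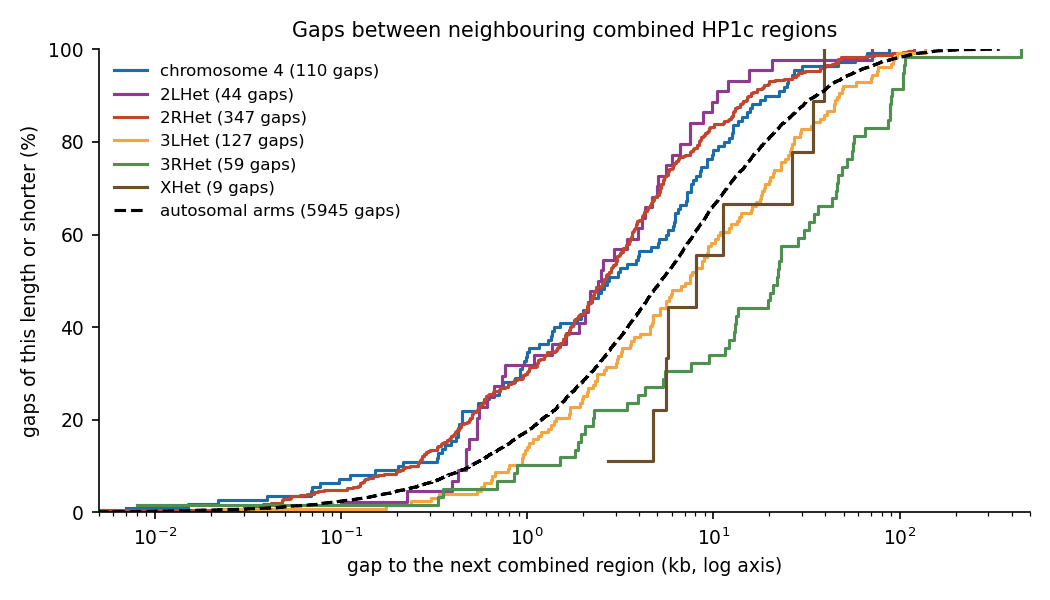
Cumulative share of gaps (percent) between neighbouring combined regions against gap length (kb, log axis) on each of the 6 sequences and on the autosomal arms. The curves of chromosome 4, 2LHet and 2RHet lie to the left, with medians of 2717, 2453.5 and 2581 bp, and that of 3RHet to the right, with a median of 22017 bp.

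Close gaps chained regions into runs, here 3 or more regions with every gap under 1000 bp. Chromosome 4 had 10 runs with 40 of its 111 regions, 2LHet 4 runs with 14 regions and 2RHet 21 runs with 86 regions, while 3LHet and 3RHet had at most 2 regions in a row and XHet none. On chromosome 4 the highest number of regions in a run was 7, reached by 2 runs. The run from 103804 to 142284 covered 90.7% of 38.5 kb with scores of 0.39 to 0.47, and no replicate region touched any of them. The other run of 7, from 934186 to 1020496, covered 97.3% of 86.3 kb, with 1 region overlapped by both replicates and 5 by none. Over all regions of chromosome 4, 59.5% had no replicate. On 2RHet, 3 runs had 8 regions each, at 217032 to 246030, 1883141 to 1907119 and 1932779 to 1957303. All 24 regions were without a replicate, as were 93.1% of all 2RHet regions. Scores in these 3 runs stayed between 0.36 and 0.72. A run of 3 regions on 2RHet at 682526 to 691208 stood higher, with scores of 1.21 to 1.68, and also had no replicate overlap. It was singled out after its values were seen.

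Most regions without a replicate lay more than 1000 bp from any replicate region. On chromosome 4 the median distance from such a region to the nearest replicate region was 10.1 kb, and 8 of 66 lay within 1000 bp. On the heterochromatin sequences the median was 41.8 kb, and 9 of 523 lay within 1000 bp. By sequence it was 41.8 kb on 2LHet, 40.0 kb on 2RHet, 38.0 kb on 3LHet, 97.3 kb on 3RHet and 6.32 kb on XHet. The replicate regions were themselves far apart here. Their median gaps in replicates 1 and 2 were 13981 and 15707 bp on chromosome 4 and 40607 and 45044 bp on heterochromatin. On the autosomal arms these gaps were 10455 and 9630.5 bp. The distances were not computed for other sequences, and the part of this spacing in them was not tested.

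Seen from the replicates, most regions on these sequences were kept in the combined list. Of the 113 regions of replicate 1 there, 94 were overlapped by a combined region (83.2%), against 82.7% of all its regions. Of the 126 regions of replicate 2, 114 were overlapped (90.5%), against 90.4% of all its regions. These shares were close to those of the whole lists. The exceptions were uneven: 5 of the 9 replicate 1 regions on XHet and 7 of its 22 on 2RHet had no combined counterpart, and on chromosome 4 replicate 2 had 6 of 54 without one and replicate 1 had 1 of 47. On 2RHet, replicate 1 had a region at 2822974 to 2825210 (score 0.88) and replicate 2 one at 2823198 to 2825053 (0.56), which overlapped each other but no combined region. Replicate 1 had 3 more regions just beyond it, up to 2830718, with scores of 0.49, 0.89 and 0.38. The highest scores among the regions left out were 1.16 in replicate 1, at 626215 to 627940 on 3LHet, and 1.08 in replicate 2, at 248016 to 249388 on 3LHet.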

How the data were processed

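Region lists of 2 HP1c ChIP samples, and 1 list for both, were used as deposited. Per the submitters' processing notes, reads were aligned with Bowtie 0.12.7. Neither the region caller and its threshold nor the use of the inputs and the way of combining replicates is given in the sources used here. Per the file headers, coordinates are on FlyBase release 5. Each region has a start, an end and a deposited score, which is the authors' own and serves to describe and rank regions. Input files were not used here, and the labels tie each input to 1 ChIP list.

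Widths, gaps, covered bases and overlaps (at least 1 shared base) were computed on 1-based inclusive coordinates with Python 3.11.15, numpy 2.4.6, pandas 2.3.3, scipy 1.17.1 and matplotlib 3.10.9, and the overlap and gap code was tested on simulated data. Where several replicate regions met a combined region, the score of the one with the longest overlap was taken. Named regions were, on each sequence, the top 3 by score, the top 3 among those with both replicates, the widest, and the longest run of regions with gaps under 1000 bp, with 10 in place of 3 on chromosome 4. Others were chosen after their values were seen. The regions and the lists were chosen with earlier results of these data known. Depth is unknown because the lists hold no counts. Genes were not assigned, because the only gene table used is on release 6. Alternatives were other overlap rules, a score minimum, merging of regions closer than 500 bp, each replicate list alone, and, added after the data were seen, a width minimum and leaving out 2RHet.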

Additional observations from a re-analysis of the deposited data

How the results depend on the processing

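Of 44 alternative values, 16 stayed within the reported value's counting interval (shares) or within 1 SD between replicates (coverage and gaps) and 28 moved. For coverage and gaps the reported value lay outside both replicate values by more than that SD. Either replicate list in its place therefore had to count as moved, and the tally is partly built in. Asking for 50% of both regions gave 18.9% of chromosome 4 regions (reported 32.4%) and 5.58% of heterochromatin regions (reported 7.61%) with both replicates. Keeping scores at or above the whole list's median gave 58.5% and 11.3% with both, 69.8% (reported 40.5%) and 15.7% (reported 11.5%) with at least 1 replicate, coverage of 23.9% (reported 33.7%) and 9.26% (reported 14.7%), and median gaps of 8905 bp (reported 2717 bp) and 8375 bp (reported 3615 bp). The replicate 1 and 2 lists in place of the combined list gave coverage of 9.06% and 14.3% on chromosome 4 and 1.87% and 2.34% on heterochromatin, with median gaps of 13981 and 15707 bp and of 40607 and 45044 bp. Regions with both replicates alone covered 17.8% and 2.25%. Merging moved the chromosome 4 gap to 5875 bp. With 1 replicate left out, the share with a replicate was 33.3% to 39.6% on chromosome 4 and 7.78% (without replicate 2) to 11.3% (without replicate 1) on heterochromatin. A width minimum and leaving out 2RHet were chosen after seeing the data. A minimum of 1301 bp gave 10.8% with both and 16.0% with at least 1 replicate on heterochromatin. Without 2RHet these shares were 13.6% and 18.1%, coverage 8.78% and the gap 7039 bp. No cause of these shifts was tested. No paired analysis was possible because the replicate numbers pair each ChIP sample with an input, and no region lists of the inputs were used here.

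Limits are the single pair of ChIP samples, the unknown depth, the unstated way in which the combined list was made, and the repeats of these sequences, in which the mapping of short reads was not examined.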
